A study of Mus musculus with 6 samples.

Results

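The p53 targets of growth arrest described here are 7 mouse genes, Cdkn1a, Btg2, Plk2, Plk3, Sesn1, Gadd45a and Zfp365, which p53 is known to induce to halt the cell cycle or to help a cell tolerate stress. They were found by symbol among the 22933 Ensembl genes of the deposited table, where all 7 have a row. RNA came from mouse embryonic stem cells of strain m ESC Ezh2 fl/fl, a line whose Ezh2 alleles were floxed in both groups. Ezh2 encodes the catalytic subunit of Polycomb repressive complex 2. Untreated cells, whose genotype the labels give as Ezh2 wild type (3 libraries), were compared with cells that received 4-hydroxytamoxifen at 800 nM for 96 h, labelled Ezh2 KO (3 libraries), with RNA taken 4 days after treatment. The recombinase, the floxed exons, the number of clones and whether the replicates were separate cultures are not given in the labels, so the p-values here cover the spread among the 6 libraries, which may be technical. All cells were grown on gelatin with serum and leukaemia inhibitory factor, and no group received tamoxifen without floxed alleles, so the drug and the deletion cannot be told apart.

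The transcription factor p53 is held low by Mdm2 and is stabilised by DNA damage and other stresses. It then binds paired copies of a short palindromic site near its target genes and raises their transcription. Cdkn1a encodes p21, which inhibits cyclin-dependent kinases, while the other 6 genes act on mRNA decay, kinase signalling, nutrient sensing, DNA repair signalling and genome stability. In embryonic stem cells, which divide rapidly with a short gap before S phase, p53 is also known for driving differentiation after damage.

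The deposited values are a normalized signal per gene, scaled to nearly the same distribution in every library, and the whole number of reads behind each value could be worked back from it. These recovered reads came to 2334448 to 5689666 per library, and 10127 to 12686 genes reached 10 reads. The 10 most abundant genes held 20.2% to 36.7% of the reads, the highest share in untreated replicate 3. Markers of embryonic stem cells were present in every library, with the 10 genes of that list summing to 1109 to 1830 RPM (recovered reads scaled to a common library total) in untreated and 1380 to 1900 RPM in tamoxifen libraries. Ezh2, the targeted gene, had deposited values of 4165, 3620 and 3483 in untreated and 2258, 2559 and 2609 in tamoxifen libraries, lower in every tamoxifen library but not absent. On the log2 scale the difference was -0.60 ± 0.13 (SE; limma adjusted p 0.157). On recovered reads it was -0.13, or -0.39 relative to the median of all tested genes, and in RPM the groups overlapped. As the floxed exons are not given, these values could not be set against the deleted part of the gene.

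The 7 genes did not behave alike. Cdkn1a, Btg2, Plk2 and Zfp365 had higher values in all 3 tamoxifen libraries than in any untreated library, Plk3 stood somewhat higher with overlapping groups, and Sesn1 and Gadd45a stayed near their untreated levels. The fold changes on the log2(value + 1) scale ran from -0.20 for Sesn1 to 2.34 for Zfp365, with a median of 1.25 beside -0.01 over the 11843 genes tested. A total RNA measurement of whole cultures cannot tell more RNA per cell from more cells that express a gene. The genes were chosen with this comparison in view, so their differences are given as a description and without a test. For 4 of the 7 the groups did not overlap with tamoxifen higher, and 9.49% of all tested genes showed the same. For 0 of the 7 were all tamoxifen values lower, beside 8.89% of tested genes. A limma fit over all tested genes called 3 of the 7 higher (Btg2, Plk2 and Zfp365) at an adjusted p under 0.05, beside 0.110% of tested genes, and nothing is read from that count. All 7 had at least 10 reads on average, the minimum for a gene to be tested.

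**Figure D1:**
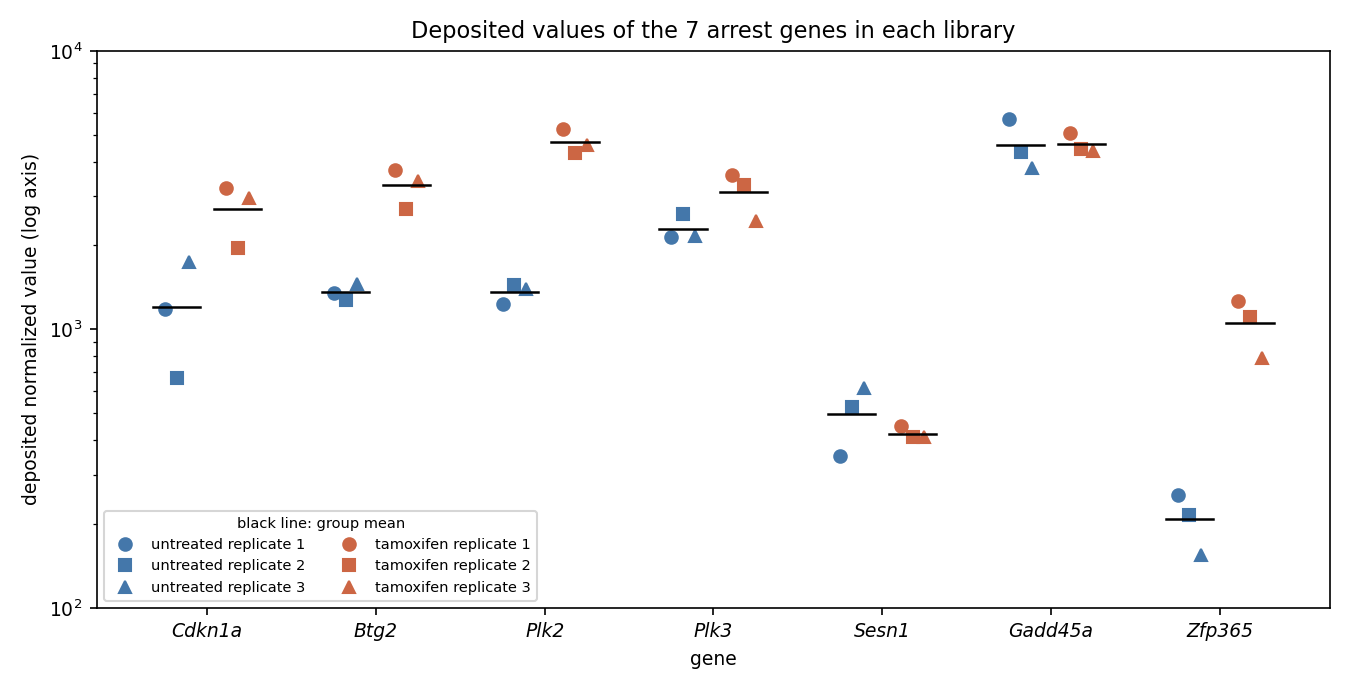
Deposited normalized value (log axis) of each gene in each of the 6 libraries, untreated in blue and tamoxifen in orange, with replicate 1, 2 and 3 as circle, square and triangle and the group mean as a black line. Cdkn1a, Btg2, Plk2 and Zfp365 have all tamoxifen points above all untreated points, while those of Plk3, Sesn1 and Gadd45a overlap.

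Markers of other cell types moved with the groups as well. Of 15 genes of primitive and visceral endoderm, 14 had a higher tamoxifen mean, and their sum was 465 to 897 RPM in untreated and 1361 to 1922 in tamoxifen libraries, with no marker at 0 in all libraries. All 12 tested had positive log2 fold changes, as did 5717 of all 11843 tested genes. Of the 12, 11 had groups without overlap, beside 9.49% of all tested genes with tamoxifen higher. By limma 0 were called, and 11 had an unadjusted p under 0.05, beside 6.85% of all tested genes with tamoxifen higher. Trophoblast markers, 8 of 10 higher, summed to 53.4 to 104 and 133 to 154 RPM, with Tpbpa at 0. Most of that sum came from Krt18, Tfap2c and Krt8, with tamoxifen means of 61.2, 46 and 27.3 RPM. The next highest was Eomes at 3.32. Only 4 of the trophoblast markers had enough reads to be tested. Of these, 2 had groups without overlap, beside 9.49% of all tested genes, and 0 were called by limma. Fibroblast and feeder markers summed to 21 to 48.3 and 20 to 57 RPM, with overlapping ranges and Lum at 0. The part of endoderm-like or trophoblast-like cells in the levels of the 7 arrest genes was not tested.

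Cdkn1a (ENSMUSG00000023067, chromosome 17, 29090976 to 29100727 on the plus strand of GRCm38) encodes p21, the inhibitor through which p53 stops cyclin-dependent kinases. The RefSeq table holds 2 start sites for it. The window upstream of the first is shown because it carries the letters of a p53 site, a pair of adjacent half-sites of 10 bases each. It spans chr17:29090729-29090978 on the plus strand of GRCm38.p6, and the capitals mark the 20 bases of the site, from 51 to 32 bases before the start.
Cdkn1a upstream start: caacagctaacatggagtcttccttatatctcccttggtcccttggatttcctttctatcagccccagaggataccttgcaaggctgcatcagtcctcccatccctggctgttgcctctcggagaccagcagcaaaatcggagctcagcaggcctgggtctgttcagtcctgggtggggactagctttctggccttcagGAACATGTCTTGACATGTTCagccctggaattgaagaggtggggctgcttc
The marked bases depart from the p53 full-site consensus at 1 of 20 positions. Among all 32851 promoter windows of 300 bases in the RefSeq table, 29 (0.0883%) hold a match that close without a spacer. The window of the second Cdkn1a start, which begins 250 bases before position 29093769, came no closer than 5 mismatches, a match that 76.6% of all windows equal or better. A match of letters is a description of sequence and does not show that p53 bound there in these cells.

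Cdkn1a values were 1186, 671 and 1748 in untreated replicates 1 to 3 and 3219, 1964 and 2958 in tamoxifen replicates 1 to 3. The groups did not overlap, but untreated replicate 3 lay closer to tamoxifen replicate 2 than to untreated replicate 1. The untreated mean was 1202 ± 539 and the tamoxifen mean 2714 ± 663 (SD, n = 3 each), 2.26-fold higher, with a log2 fold change of 1.25 ± 0.35 (SE). The values rested on 52, 44 and 42 reads in untreated and 120, 64 and 222 in tamoxifen libraries. On deposited values Cdkn1a had the largest residual SD of the 7 genes. Its highest untreated value was 2.61 times its lowest, and that residual SD, 0.56 on the log2 scale, lay at percentile 88.7 of all tested genes. Leaving out 1 library at a time moved its log2 fold change between 0.88 and 1.57. GENCODE places another transcript on the opposite strand within the Cdkn1a locus. Whether the counting used strand is not given in the sources used here, so reads of the pair cannot be told apart.

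Btg2 (ENSMUSG00000020423, chromosome 1, 134075170 to 134079120, minus strand) encodes an antiproliferative protein that brings the CCR4-NOT deadenylase to mRNAs. The window upstream of its start is shown with that of Plk2, because both hold TGACGTCA, the cAMP response element. That element reads the same on both strands and was found in 1.79% of all windows. Other letter patterns were searched as well and are listed with the processing. The Btg2 sequence covers chr1:134079156-134079405 on the minus strand of GRCm38.p6, with the element in capitals from 166 to 159 bases before the start. The Plk2 sequence covers chr13:110394794-110395043 on the plus strand, with the element from 62 to 55 bases before the start.
Btg2: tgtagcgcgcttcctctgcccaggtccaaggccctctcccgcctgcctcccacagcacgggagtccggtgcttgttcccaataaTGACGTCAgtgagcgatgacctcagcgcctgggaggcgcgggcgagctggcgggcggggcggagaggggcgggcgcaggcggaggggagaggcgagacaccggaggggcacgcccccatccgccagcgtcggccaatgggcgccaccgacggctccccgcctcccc
Plk2: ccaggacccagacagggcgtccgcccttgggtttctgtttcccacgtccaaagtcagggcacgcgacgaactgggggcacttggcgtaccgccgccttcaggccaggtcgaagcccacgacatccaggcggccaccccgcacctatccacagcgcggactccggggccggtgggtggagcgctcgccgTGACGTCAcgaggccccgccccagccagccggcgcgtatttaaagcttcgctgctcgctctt
The closest p53 full-site match had 4 mismatches in the Btg2 window and 5 in the Plk2 window, and 30.2% and 76.6% of all windows did as well or better. The Btg2 match lay after the start, beyond the sequence shown, and the Plk2 match spanned the start. Sites farther from the start were not searched.

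Btg2 had values of 1351, 1274 and 1455 in untreated libraries and 3745, 2703 and 3415 in tamoxifen libraries. The untreated values were tightly grouped, and the lowest tamoxifen value lay well above the highest of them. The means were 1360 ± 91 and 3288 ± 533 (SD, n = 3 each), a 2.42-fold difference and a log2 fold change of 1.26 ± 0.16 (SE). Reads numbered 51, 75 and 28 in untreated and 168, 94 and 268 in tamoxifen libraries. Its fold change was thus close to that of Cdkn1a, while its residual SD on the log2 scale was 0.18 against 0.56. With each library left out in turn the log2 fold change stayed between 1.16 and 1.40.

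Plk2 (ENSMUSG00000021701, chromosome 13, 110395046 to 110400844, plus strand) encodes a Polo-like kinase that is induced by serum and by p53 and acts on centriole duplication and stress signalling. Its values were 1235, 1440 and 1398 in untreated and 5244, 4291 and 4574 in tamoxifen libraries. Both groups were tight and far apart, with means of 1358 ± 108 and 4703 ± 490 (SD, n = 3 each). The fold over the untreated mean was 3.86, 3.16 and 3.37 in tamoxifen replicates 1, 2 and 3, with a log2 fold change of 1.79 ± 0.14 (SE). Plk2 had the smallest residual SD of the 7 genes on deposited values, 0.13 on the log2 scale, at percentile 13.2 of all tested genes. It also had the most reads in the tamoxifen libraries, 276, 210 and 453, against 69, 110 and 32 in untreated libraries.

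Plk3 (ENSMUSG00000028680, chromosome 4, 117128655 to 117133963, minus strand), a relative of Plk2, encodes a stress-responsive kinase that can phosphorylate p53. It had values of 2138, 2597 and 2155 in untreated and 3579, 3295 and 2441 in tamoxifen libraries. Tamoxifen replicate 3 lay below untreated replicate 2, so the groups overlapped. The means were 2297 ± 260 and 3105 ± 592 (SD, n = 3 each), 1.35-fold apart, and the log2 fold change was 0.42 ± 0.18 (SE). The Plk3 values rested on 32 to 142 reads, and untreated replicate 3 with 32 reads had a counting error of 17.7%. The gene overlaps Tctex1d4, a protein-coding gene on the opposite strand, whose reads could not be separated.

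Sesn1 (ENSMUSG00000038332, chromosome 10, 41809935 to 41908424, plus strand) encodes a sestrin, a leucine-sensing inhibitor of the growth kinase mTORC1. Its values were 351, 526 and 613 in untreated and 448, 409 and 409 in tamoxifen libraries. All 3 tamoxifen values fell inside the untreated range. The means were 497 ± 133 and 422 ± 22.4 (SD, n = 3 each), with a log2 fold change of -0.20 ± 0.23 (SE) that stayed below 0, from -0.43 to -0.03, with any 1 library left out. On recovered reads the sign turned, to 0.30 ± 0.39, or 0.05 above the median of all genes. A transcript on the same strand, 9930024M15Rik, overlaps the gene. Of its 2 RefSeq windows, the one at the second start held a p53 full-site match with 3 mismatches, which 6.29% of all windows equal or better.

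Gadd45a (ENSMUSG00000036390, chromosome 6, 67035096 to 67037457, minus strand) encodes a small nuclear protein that binds PCNA and p21 and takes part in repair and stress kinase signalling. Values of 5681, 4330 and 3789 in untreated libraries stood beside 5077, 4454 and 4378 in tamoxifen libraries. The tamoxifen values again lay inside the untreated range. The means were 4600 ± 975 and 4636 ± 384 (SD, n = 3 each) and the log2 fold change 0.03 ± 0.17 (SE), on 51 to 238 reads. Its window also held a 3-mismatch p53 match, from 244 to 225 bases before the start. A non-coding transcript, E230016M11Rik, overlaps the gene on the opposite strand.

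Zfp365 (ENSMUSG00000037855, chromosome 10, 67886103 to 67912662, minus strand), whose human counterpart is a p53 target that protects fragile sites and telomeres during replication stress, had the largest fold change of the 7 on deposited values. The window upstream of its start is shown because its p53 full-site match is the closest after that of Cdkn1a. It covers chr10:67912663-67912912 on the minus strand of GRCm38.p6, and the capitals mark the match from 63 to 44 bases before the start.
Zfp365: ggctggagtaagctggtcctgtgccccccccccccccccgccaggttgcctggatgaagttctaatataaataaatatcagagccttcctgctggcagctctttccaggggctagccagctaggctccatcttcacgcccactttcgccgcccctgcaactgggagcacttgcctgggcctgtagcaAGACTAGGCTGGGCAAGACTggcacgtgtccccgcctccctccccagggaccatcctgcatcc
This match departs from the consensus at 2 of 20 positions, and 0.798% of all windows hold 1 as close. Values of Zfp365 were 254, 215 and 155 in untreated and 1265, 1109 and 789 in tamoxifen libraries. The lowest tamoxifen value was several times the highest untreated value. The means were 208 ± 49.4 and 1054 ± 243 (SD, n = 3 each), a 5.07-fold difference, with a log2 fold change of 2.34 ± 0.26 (SE) and a range of 2.14 to 2.53 with each library left out. Reads numbered 56, 51 and 13 in untreated and 137, 113 and 167 in tamoxifen libraries, and the 13 reads of untreated replicate 3 carry a counting error of 27.7%.

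The order of the libraries within a group depended on the scale. On deposited values tamoxifen replicate 1 was the highest of its group for all 7 genes. In RPM it was the highest for 0 of them, with tamoxifen replicate 2 highest for 5 and replicate 3 for 2. Untreated replicate 3 had the fewest untreated reads, and its 10 most abundant genes held 36.7% of them. It was the lowest of its group for 6 of the 7 genes in RPM but for 2 on deposited values. In tamoxifen replicate 1 the 10 most abundant genes held 32.3%, the highest share in its group. The part of these shares in the order was not tested. For Zfp365 the RPM values were 14.5, 8.96 and 4.85 in untreated and 35.6, 48.4 and 32.7 in tamoxifen libraries. Those of Plk2 were 17.9, 19.3 and 11.9 against 71.7, 90 and 88.6. The same 4 genes, Cdkn1a, Btg2, Plk2 and Zfp365, had groups without overlap on both scales, and in RPM 7.95% of tested genes did so with tamoxifen higher. On that scale 0 of the 7 lay lower without overlap, beside 0.912% of tested genes.

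The move to recovered reads differed between genes, with the log2 fold change of Btg2 going from 1.26 to 1.88 and that of Zfp365 from 2.34 to 2.14. Over all tested genes the median log2 fold change was 0.25 in place of -0.01. Relative to that median, Plk2 stood at 2.11, Zfp365 at 1.88, Btg2 at 1.62 and Cdkn1a at 1.24. Plk3 stood at 0.43, Sesn1 at 0.05 and Gadd45a at -0.05. The division into 4 genes with large differences and 3 with small ones was therefore present on both scales, while Plk2 and Zfp365 changed places at the top. The SE of each member was 0.38 to 0.42 on reads, so the exchange lies within the error. The limma fit of recovered reads called Btg2, Plk2 and Zfp365, with 0.110% of tested genes called higher, and nothing is read from that either. Both scales come from the same libraries, so they are not independent of each other.

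**Figure D2:**
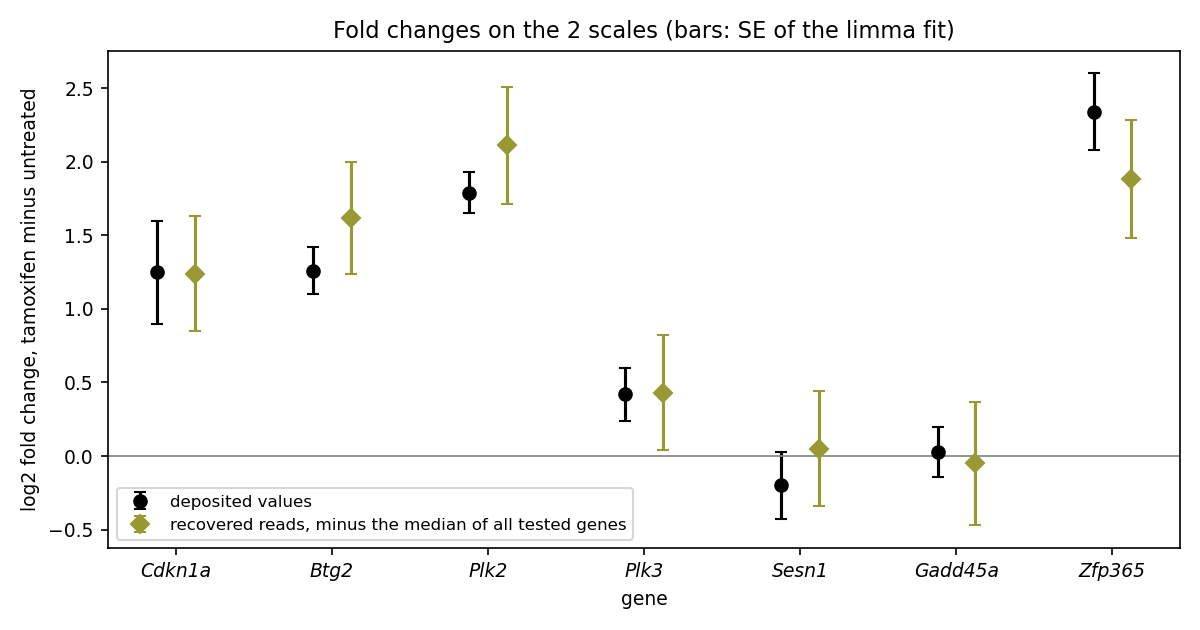
Log2 fold change (tamoxifen minus untreated) of each gene on deposited values (black circles) and on recovered reads after subtraction of the median of all tested genes (olive diamonds), with the SE of the limma fit. Zfp365, Plk2, Btg2 and Cdkn1a lie at or above 1.24 on both scales, and Sesn1 and Gadd45a lie between -0.20 and 0.05.

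Levels of different genes were compared as RPM per kilobase of exon, which corrects for gene length. In untreated cells Gadd45a led at 21.8 ± 10.2 (SD, n = 3), at percentile 85.6 of tested genes. Plk3 (6.91 ± 2.65) and Sesn1 (5.90 ± 1.12) came next with overlapping ranges. Btg2 (4.48 ± 0.579), Plk2 (3.65 ± 0.872) and Cdkn1a (3.46 ± 1.16) followed, and the ranges of these neighbours overlapped as well. Zfp365 was lowest at 1.82 ± 0.933, at percentile 23.5, with a highest value of 2.79 that overlapped the lowest of Cdkn1a at 2.18. Gadd45a and Plk3 did not overlap, nor did Sesn1 and Btg2, whose nearest values were 4.88 and 4.82.

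After tamoxifen the order changed below Gadd45a, which stood at 23.0 ± 2.05. Plk2 came second at 18.6 ± 2.27 and then Btg2 at 16.6 ± 2.29, with overlapping ranges, at percentiles 81.9 and 79.8. Plk3 (10.7 ± 1.86), Cdkn1a (9.57 ± 2.36), Zfp365 (7.47 ± 1.61) and Sesn1 (7.33 ± 1.68) stood below Btg2 without overlap, and each of them overlapped its neighbour. Plk2, at 2.66 to 4.30 in untreated libraries, was below the 4.72 to 9.86 of its relative Plk3, and in tamoxifen libraries, from 16.0 upwards, was above the 8.81 to 12.5 of Plk3. On this scale Gadd45a, which showed almost no difference between the groups, was thus the most abundant of the 7 in both. Sesn1 went from rank 3 to rank 7 with levels that overlapped between the groups. The order differed on deposited means, not divided by length, where untreated Sesn1 (497) already lay below Btg2 (1360), Plk2 (1358) and Cdkn1a (1202). In tamoxifen libraries the deposited means of Plk2 (4703 ± 490, SD) and Gadd45a (4636 ± 384) were similar.

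Family relatives that are not in the set were examined as a list of 14 genes, of which 12 had enough reads to be tested. By limma 0 rose and 0 fell, 0 had an unadjusted p under 0.05 on deposited values, and 0 were called on recovered reads. The groups did not overlap, with tamoxifen lower, for 2 of the 12, Cdkn1c and Plk4, beside 8.89% of all tested genes, and in RPM both overlapped. Their median log2 fold change was -0.17, beside -0.01 for all tested genes, and 0.04 on recovered reads, beside 0.25. Cdkn1b, which encodes the CDK inhibitor p27, stood at -0.25 ± 0.20 (SE) and Cdkn1c, which encodes p57, at -0.24 ± 0.12. Btg1 stood at -0.18, Btg3 at -0.17, Tob1 at 0.16 and Tob2 at -0.18, all genes of the antiproliferative family of Btg2. Of the other Polo-like kinases, Plk1, which drives mitosis, stood at 0.02, the centriole kinase Plk4 at -0.33 and Plk5 at -0.24. The sestrins Sesn2 (0.15) and Sesn3 (0.04) and Gadd45b (0.16) likewise lay close to 0. Limma adjusted p in this list ranged from 0.435 for Plk4 to 0.977 for Plk1. Gadd45g, on 9 reads on average, and Btg4, with 1 read in 1 library, were not tested.

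**Figure D3:**
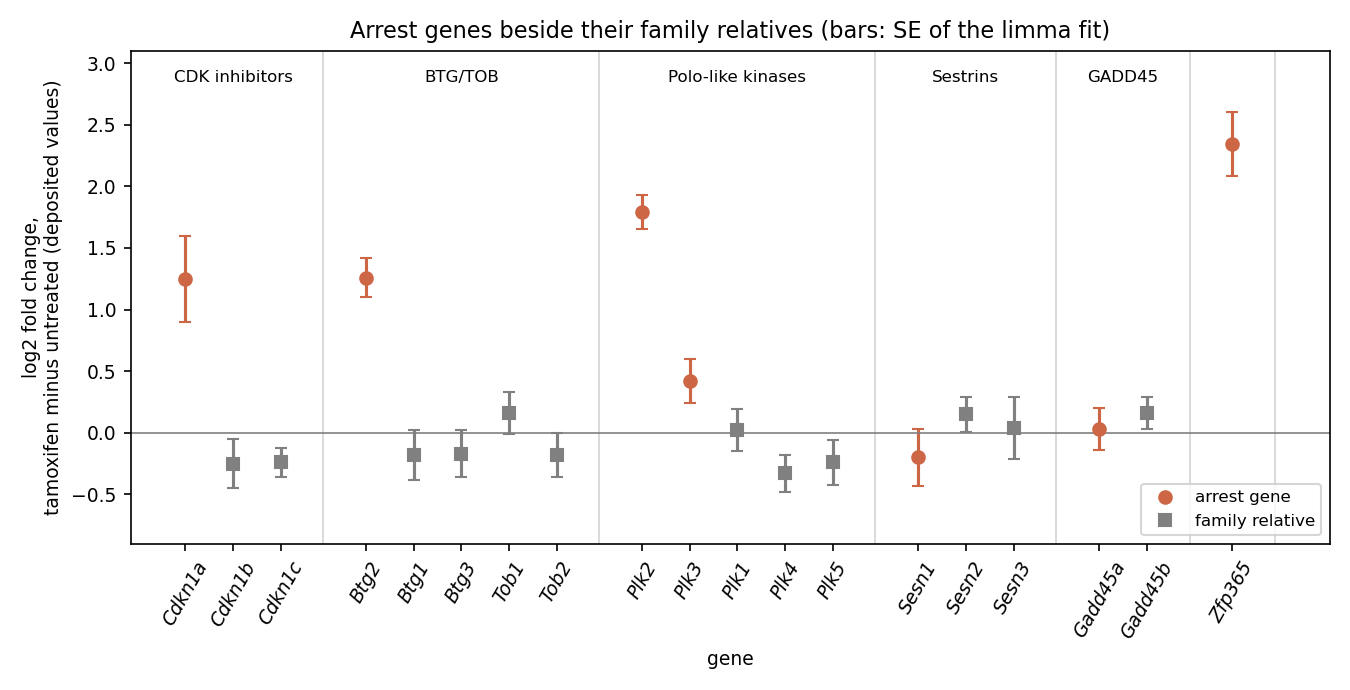
Log2 fold change on deposited values (tamoxifen minus untreated, bars are the SE of the limma fit) of the arrest genes (orange circles) and their tested family relatives (grey squares), grouped by family. Cdkn1a at 1.25, Btg2 at 1.26 and Plk2 at 1.79 lie above their tested relatives, whereas Sesn1 at -0.20 lies below Sesn2 (0.15) and Sesn3 (0.04), and Gadd45a at 0.03 below Gadd45b (0.16).

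The other genes of the p53 pathway were followed as 4 lists with 58 genes, of which 53 were tested. Limma called 6 of them higher and 1 lower, and the background shares were 0.110% higher and 0.0169% lower. Without overlap between groups were 23 higher and 5 lower genes, where all tested genes had shares of 9.49% higher and 8.89% lower. The median log2 fold change was 0.19, and 0.54 on recovered reads, where the median of all genes was 0.25. The lists were drawn up with earlier results of the same libraries known, so the counts are not independent evidence of a direction.

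Trp53 itself, the gene for p53, had values of 2588, 2394 and 3258 in untreated and 2753, 3512 and 3095 in tamoxifen libraries. The groups overlapped, at 0.19 ± 0.16 (SE) on the log2 scale and a limma adjusted p of 0.689. Mdm2, the ubiquitin ligase that degrades p53 and is itself a p53 target, rose by 1.39 ± 0.15 (limma adjusted p 0.0469), and Ccng1, encoding cyclin G1, rose by 1.37 ± 0.17 (limma adjusted p 0.0485). Usp28, a deubiquitinase gene of the same list, fell, at -1.01 ± 0.13 (limma adjusted p 0.0485). Trp53inp1 stood at 1.37 without a call. In the list of p53 and its regulators 2 of 16 tested genes rose and 1 fell, with a median of 0.01.

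Of 15 tested p53 targets of apoptosis 14 had positive fold changes and 1 was called higher. This was Perp, which encodes a desmosomal membrane protein, at 2.34 ± 0.18 (limma adjusted p 0.0109). Phlda3, an Akt inhibitor gene, at 1.12, the death receptor gene Tnfrsf10b and Eda2r at 0.68 were not called. The repair list went mostly the other way, with 8 of 10 tested genes below 0 and a median of -0.30. Ercc5, the excision repair nuclease gene, rose there by 1.53 ± 0.19 (limma adjusted p 0.0485), while the polymerase genes Polk (1.26) and Polh (-0.49) and the reductase gene Rrm2b (-0.75) were not called. On recovered reads that list had a median of 0.03, beside 0.25 for all tested genes. Among 12 other tested targets, Tap1, a peptide transporter gene, rose by 1.45 ± 0.16 (limma adjusted p 0.0469) and the drug exporter gene Abcb1b by 1.52 ± 0.18 (limma adjusted p 0.0485), with Ephx1 at 2.10 and Ptpn14 at 1.35 not called. Cdkn1a and Btg2 thus had fold changes like those of Mdm2 and Ccng1, and Zfp365 one like that of Perp.

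These calls were sensitive to single libraries. With untreated replicate 3 or any 1 of tamoxifen replicates 1, 2 and 3 left out, limma called 0 genes in the whole table. The lowest adjusted p was then 0.0786 to 0.0989, with 427 to 724 genes in each direction at an unadjusted p under 0.05. Perp stayed called without untreated replicate 1 or 2, and Ccng1 without untreated replicate 1, whereas Mdm2, Ercc5, Tap1, Abcb1b and Usp28 lost their call whichever library was left out. On recovered reads Perp, Tap1 and Ephx1 were called, and Mdm2 (1.46), Ccng1 (1.23), Ercc5 (1.62), Abcb1b (1.52) and Usp28 (-0.54) were not. Relative to the median of all tested genes, Mdm2 stood at 1.21, Ccng1 at 0.98, Ercc5 at 1.37, Abcb1b at 1.27 and Usp28 at -0.79.

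Genes on which p21 and its partners act were counted next. Of the 15 tested cyclins, cyclin-dependent kinases and pocket proteins limma called 0, on deposited values or on reads. At an unadjusted p under 0.05, 3 of them were higher and 1 lower, beside 6.85% and 5.11% of all tested genes. Rb1, the retinoblastoma gene, stood at 0.78 ± 0.19 (limma adjusted p 0.193). On recovered reads it stood at 1.43, or 1.18 relative to the median of all tested genes. The cyclin D3 gene Ccnd3 stood at 0.47, Ccnd2 at 0.62 and Cdk6 at -0.78. The latter was -0.06 on recovered reads, or -0.32 relative to the median of all tested genes. Of 20 cell division genes that are known to be repressed through p21, 0 were called in either direction by limma, on deposited values or on reads, and 0 had an unadjusted p under 0.05 on deposited values. Of the 20, 12 had positive and 8 negative fold changes, with a median of 0.02. On recovered reads 16 were positive, where 9202 of all 11843 tested genes were, and the median was 0.13, beside 0.25 for all genes. Within the list the highest untreated deposited value was 1.05 to 12.1 times the lowest, so some of these genes varied widely. The 4 with the smallest p were all negative on deposited values, Aurkb at -0.30, Ccnb1 at -0.27, Bub1 at -0.29 and Prc1 at -0.25. The higher Cdkn1a RNA was thus recorded beside cell division transcripts with a median close to that of all tested genes, -0.01, on deposited values.

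**Figure D4:**
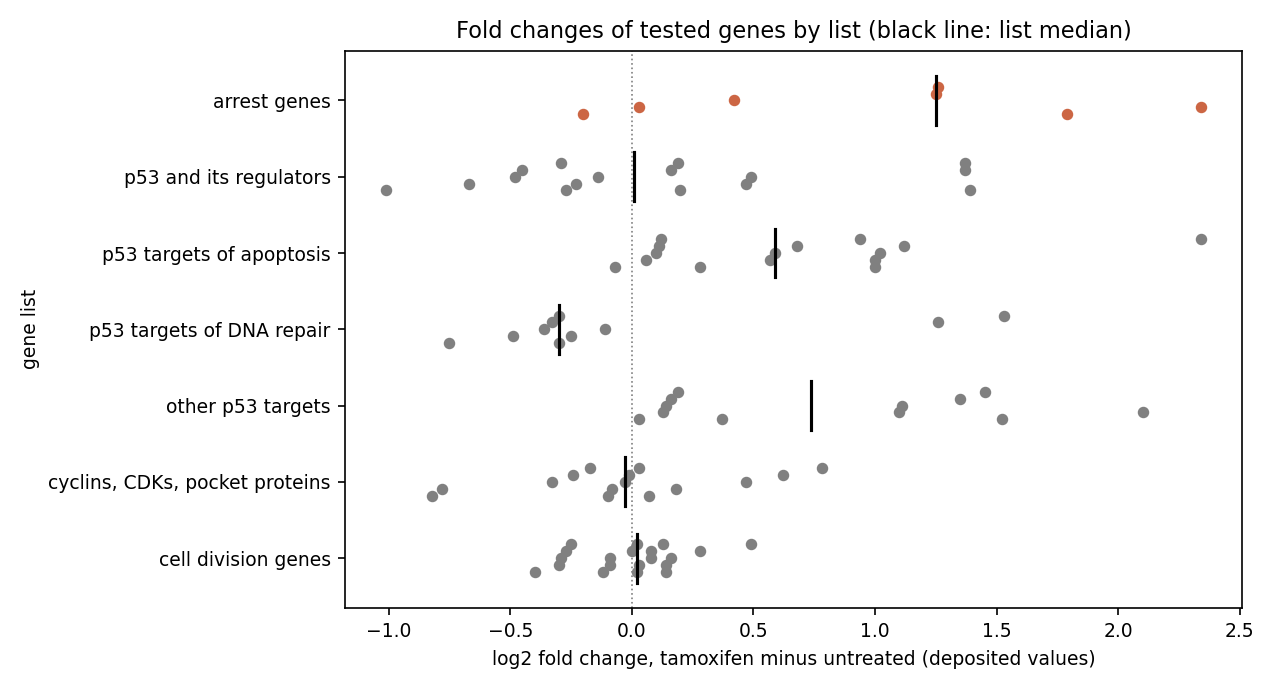
Log2 fold change on deposited values (tamoxifen minus untreated, horizontal axis) of each tested gene in the arrest set (orange) and in 6 other lists (grey), with the list median as a black line and points spread vertically for visibility. The arrest genes have a median of 1.25, p53 targets of apoptosis 0.59, cyclins and partners -0.03 and cell division genes 0.02.

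The profile of the 7 genes was summarised as the mean of their standardised log2 values, which was -0.56, -0.57 and -0.50 in untreated replicates 1 to 3 and 0.93, 0.40 and 0.31 in tamoxifen replicates 1 to 3. Btg2 and Plk2 (Pearson r 0.964 each) and Zfp365 (0.954) followed it most closely over the 6 libraries, Cdkn1a (0.826) and Plk3 (0.841) less so, and Gadd45a (0.172) and Sesn1 (-0.278) did not. Each gene is itself part of that mean. The high value of tamoxifen replicate 1 belongs to the deposited scale, since in RPM that library was the highest of its group for 0 of the 7, and the likeness was not computed in RPM. Among 9376 other named genes with at least 10 reads in every library, the 8 most like this profile were Srxn1 (r 0.999), Cd151 (0.991), Icam1 (0.989), Pth1r (0.988), Sfn (0.987), Tcn2 (0.986), Atp2a3 (0.986) and Otud7b (0.984). These correlations describe 6 libraries that share 2 groups and the same normalization, and many genes with a difference between the groups would score high. Srxn1, the sulfiredoxin gene, went from 2580 ± 27.7 to 3586 ± 403 (SD, n = 3 each). Sfn, which encodes stratifin and is known as a p53 target of cell cycle arrest in epithelial cells, went from 2691 ± 231 to 4888 ± 722. None of the 8 was called by limma, and their largest log2 fold change was that of Pth1r on deposited values, 0.94, and that of Sfn on recovered reads, 1.64.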

How the data were processed

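Total RNA was depleted of ribosomal RNA and sequenced as directional libraries, per the labels' protocols. The submitters' processing notes name TopHat2, bedtools, DESeq2 and the build mm9, with no versions; annotation, strand setting and counting rule are not given in the sources used here. The deposited signal per gene and library, named as DESeq2-normalised counts by the authors, is not a read count divided by 1 factor: each of 100305 values above 0 equals 9.73 × k × (m + 0.1) / (k + 0.1) with whole numbers k and m, within a relative misfit of 5.11e-15. The number k was taken as recovered reads. Of the values, 98.8% had 1 solution, 1083 were resolved from other libraries of that gene and 106 by choosing k and m closest together. Read totals per library are above.

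On the log2(value + 1) scale, limma 3.58.1 (R 4.3.3, moderated test with trend) was fitted to 11843 genes averaging 10 or more recovered reads. A gene was called where p, adjusted by Benjamini-Hochberg, fell under 0.05; the added 1 shrinks changes of low genes. The fit and the solver were tested on simulated data. The members, lists, minimum of 10 reads and alternatives were chosen with earlier results of these data known. Named were the 7 genes, their relatives, Ezh2, up to 4 genes of smallest p and all called genes per p53 or cell cycle list, and the 8 genes most like the members, by Pearson correlation with their mean profile. Trp53 was added for its role after its values were seen. Alternatives were another pseudocount, filter or normalization, recovered reads, no trend, a replicate block and leaving out each library. Symbols, exon lengths and loci came from GENCODE vM21 (GRCm38), whose coordinates were not mixed with mm9, for 20273 genes. Promoter windows, 250 bases before to 50 after a start, came from RefSeq (GRCm38.p6), with 9 windows for the 7 genes. The p53 full site was searched as its consensus of 2 adjacent half-sites, which reads the same on both strands. The other letter patterns named above were searched on both strands. Tables and figures used Python 3.11.15, numpy 2.4.6, pandas 2.3.3 and matplotlib 3.10.9.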

Additional observations from a re-analysis of the deposited data

How the results depend on the processing

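On recovered reads, before subtracting the median of all genes, 4 of the 7 fold changes moved by more than the gene's residual SD: Btg2 to 1.88, Plk2 to 2.36, Plk3 to 0.68 and Sesn1, which changed sign, to 0.30. Gadd45a lay on both sides of 0, from -0.10 to 0.19, with 1 library left out. As designed, limma called 13 genes higher and 2 lower, 3 of the 7 members, and 6 higher and 1 lower among the other p53 pathway genes. With a pseudocount of 10 limma called 5 higher and 0 lower, 1 member (Plk2), and 3 higher and 0 lower pathway genes. A filter on the mean value (10 or more, 17427 genes) gave 22 higher and 12 lower, 1 member and 3 pathway genes higher, and no filter gave 35 higher and 17 lower with 3 pathway genes higher. On recovered reads 0 genes were lower, with 3 pathway genes higher and 0 lower. Without the trend limma called 3 higher and 0 lower, 1 member, and 1 pathway gene higher and 0 lower. With 1 library left out, the counts ranged from 0 to 3 higher, 0 to 2 lower, 0 to 1 members, and 0 to 2 higher and 0 to 0 lower pathway genes. The fit with the replicate number as a block called 0 genes higher, 0 lower, 0 members, and 0 higher and 0 lower pathway genes, with a lowest adjusted p of 0.137 and 776 higher and 588 lower genes at an unadjusted p under 0.05. Same-numbered libraries did not deviate together over all tested genes (correlations -0.0494 to 0.00478). As the labels do not describe pairing, whether they share more than a number is not known. Quantile normalization and trimmed-mean scaling left all of these counts in place. The cause of the lost calls was not tested, beyond the fewer samples or residual degrees of freedom of the fits with a library left out or a block. Depth limits Zfp365 most, with 13 reads in untreated replicate 3.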
